A study of Mus musculus with 24 samples.

Results

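Oct4 (gene symbol Pou5f1), Sox2 and Nanog are the core pluripotency factors of mouse embryonic stem cells (ESCs). Their mRNA was followed here through bulk RNA-seq of ESCs and expanded potential stem cells (EPSCs), with and without switching off a transgene for each factor. The members were the 3 genes with these symbols in both deposited tables of normalized counts, which list 23095 genes (J1 table) and 25476 genes (tet-off table). The 24 libraries fall into 12 groups of 2 replicates. The J1 table holds wild-type, untreated J1 ESCs, kept in serum, LIF and the 2 inhibitors of 2i medium, and D-EPSCs and L-EPSCs converted from them in the media of the 2 published protocols. The tet-off table holds 3 lines with the genotypes Oct4, Sox2 and Nanog tet-off knockin (ZHBTc4, 2TS22C and NgcKO, called Oct4-, Sox2- and Nanog-cKO), each as untreated tet-off ESCs, untreated tet-off L-EPSCs and tet-off L-EPSCs treated with doxycycline (Dox). In each line the study describes the endogenous gene as deleted and replaced by a transgene that Dox turns off. Each line is a single established line, so the factor replaced and the line cannot be told apart, and no library had Dox without a tet-off transgene. The duration of Dox for these libraries is not given in the labels, and neither is whether replicates were separate cultures, so the p-values measure the spread between these samples, which may be technical. Reads on genes had a median of 13076077 per library (11612919 to 15069899) in the J1 table and 12109406 (10807631 to 14798984) in the tet-off table.

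Oct4 is a POU domain factor that binds an octamer sequence, Sox2 is an HMG box factor that often binds beside it on a joint Oct-Sox element, and Nanog is a homeodomain factor. In mouse ESCs each of them is known to bind near its own gene and the genes of the others, and genes for further pluripotency factors are shared targets. Loss of Oct4 or Sox2 is known to end self-renewal and to open trophoblast genes, whereas ESCs without Nanog can be kept.

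The loci are given in NCBIM37, the build on which the reads were counted. Pou5f1 (ENSMUSG00000024406) lies at chr17:35642982-35647721, Sox2 (ENSMUSG00000074637) at chr3:34548927-34551383 and Nanog (ENSMUSG00000012396) at chr6:122657507-122664651, all on the plus strand. Their longest CCDS transcripts have 5, 1 and 4 exons with coding lengths of 1122, 957 and 915 bases. Sox2 lies within the longer non-coding gene Sox2ot, and the strand setting of the counting is not stated, so reads of overlapping transcripts cannot be told apart. The Oct-Sox element joins an octamer end and a Sox site, and the letters GCATNACAA, in which N is any base, were searched on both strands within 5 kb on either side of each gene start. Each of the 3 loci held a match, 1 at Pou5f1, 1 at Sox2 and 2 at Nanog, while 21.21% of 22380 protein-coding genes held any. This search was added after the values had been seen, for genes already known as Oct4 and Sox2 targets, so the share is a description and no test. The matches are shown with 10 bases on either side, with the match in capitals, because Oct4 and Sox2 are known to bind elements with such letters. Whether each match, such as that in the Nanog intron, is such an element was not tested.
Pou5f1: gacggcagatGCATAACAAaggtgcatga
Sox2: aatcctatatGCATCACAAtggctgcccg
Nanog, upstream: agcttcttttGCATTACAAtgtccatggt
Nanog, intron: acacacccgaGCATCACAAcacgcacctg
The Pou5f1 match lies at chr17:35640998-35641006 on the plus strand, at position −1984 from the gene start, upstream of and outside the gene. The Sox2 match lies at chr3:34552973-34552981 on the minus strand, 4046 bases downstream of the start, past the end of Sox2 and within Sox2ot. The upstream Nanog match lies at chr6:122657435-122657443 on the plus strand, 72 bases before the gene start. The other Nanog match lies at chr6:122658592-122658600 on the minus strand, in an intron 1085 bases after the start. In the RefSeq promoters (GRCm38.p6, 250 bases upstream, both strands), the full octamer ATTTGCAT was in none of the 3 genes and in 1.813% of 27025 genes. Its core TTTGCAT was in the promoters of Sox2 and Nanog (4.651% of genes), and the Sox core ACAATG was in both Nanog promoters and 1 of 2 Pou5f1 promoters (12.24% of genes). The core of the octamer, a single base and then the Sox core, a string in which both overlap the searches above, was in Nanog alone among the 27025 genes (0.0037%). A match describes the letters and does not show binding.

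**Figure D1:**
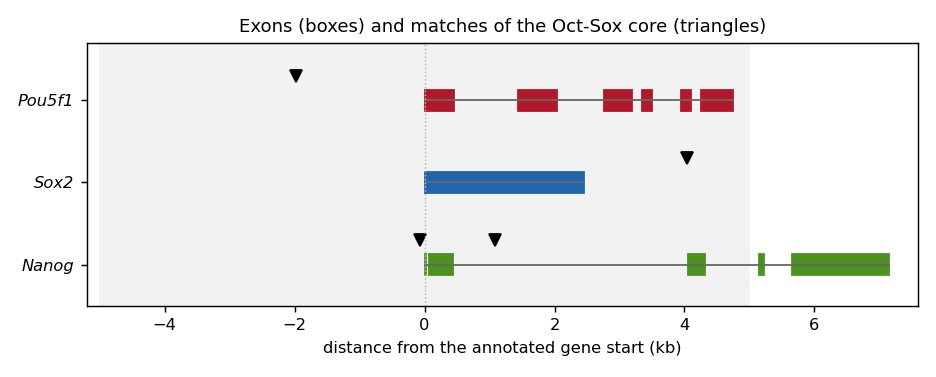
Exons of the 3 genes (boxes, drawn to scale) and matches of the Oct-Sox core letters (triangles), by distance in kb from the annotated gene start in NCBIM37, with the window of 5 kb on either side that was searched in grey. Nanog has matches 72 bases before and 1085 bases after its start, Pou5f1 has a match at −1984 and Sox2 a match 4046 bases after.

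The first question was how the state of J1 cells relates to the level of each factor. Among the 3 mRNAs, that of Nanog moved in J1 EPSCs and those of Pou5f1 and Sox2 stayed within 0.3 on the log2 scale of ESCs. Nanog stood at 10085 and 10130 normalized counts in ESCs, at 4615 and 4363 in L-EPSCs and at 2787 and 2801 in D-EPSCs. The 3 states did not overlap, with ESCs highest and D-EPSCs lowest. Here and below, an absence of overlap between groups of 2 libraries only describes these libraries. The share of all genes without overlap was not computed. In the limma fit of all genes, the log2 fold change of Nanog was −1.17 (SE 0.031, adjusted p = 1.53e-07) in L-EPSCs and −1.85 (SE 0.031, adjusted p = 1.91e-08) in D-EPSCs against ESCs, and 0.68 (SE 0.031, adjusted p = 3.93e-06) in L-EPSCs against D-EPSCs, all past the threshold of 0.6. Of all 21533 genes tested, 20.3%, 20.7% and 13.4% were called in these comparisons, which share their libraries. Genes called lower than in ESCs were 11.5% of those tested in L-EPSCs and 9.98% in D-EPSCs.

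Pou5f1 stood at 11628 and 11833 normalized counts in J1 ESCs, 11416 and 11643 in L-EPSCs and 10425 and 10325 in D-EPSCs. ESCs and L-EPSCs overlapped, and D-EPSCs lay below both. Its log2 fold change was −0.02 (adjusted p = 0.385) in L-EPSCs and −0.18 (adjusted p = 0.000284) in D-EPSCs against ESCs, and neither passed the threshold. Sox2 had the opposite order, with 4753 and 4837 normalized counts in ESCs, 5388 and 5147 in L-EPSCs and 5995 and 5732 in D-EPSCs. The 3 states did not overlap, and the log2 fold changes of 0.14 (adjusted p = 0.0129) and 0.29 (adjusted p = 0.000269) in L-EPSCs and D-EPSCs against ESCs lay below the threshold. Within a library, Nanog mRNA was 86.2% ± 0.796 (SD, n = 2) of Pou5f1 mRNA in ESCs, 38.9% ± 2.09 in L-EPSCs and 26.9% ± 0.279 in D-EPSCs, while Sox2 was 40.9% ± 0.00304, 45.7% ± 2.11 and 56.5% ± 1.41 of it. Per kb of exon, the order of the levels was Pou5f1 (5200 ± 64.2 normalized counts per kb), Nanog (4508 ± 14.0) and Sox2 (1952 ± 24.2) in J1 ESCs. In both EPSCs Sox2 stood above Nanog, with 2144 ± 69.3 per kb for Sox2 and 2002 ± 79.6 for Nanog in L-EPSCs and 2386 ± 75.7 and 1246 ± 4.48 in D-EPSCs. Per kb of coding length, Nanog (11047 ± 34.3) came before Pou5f1 (10455 ± 129) in ESCs, so the order of these genes depends on the length used.

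All 6 pluripotent stem cell markers (Zfp42, Dppa5a, Tdgf1, Fgf4, Utf1 and L1td1) had reads in every J1 library. Their summed level was 34304 ± 228 (SD, n = 2) normalized counts in ESCs, 38990 ± 283 in L-EPSCs and 30541 ± 222 in D-EPSCs. Fibroblast markers, which feeder cells express, also had reads for 7 of 7 genes in every J1 library. They summed to 89392 and 91494 normalized counts in ESCs, 18396 and 18989 in L-EPSCs and 55241 and 55429 in D-EPSCs, with the collagen gene Col1a1 the most abundant. The genes of the list did not move together. In D-EPSCs against ESCs 3 fell (Col1a1, Col1a2 and Postn) and 2 rose. Dcn rose from 638.9 and 616.0 to 1616 and 1575 normalized counts and Thy1 from 192.3 and 204.7 to 294.1 and 333.8. The call of Thy1 was lost without any 1 of the 4 libraries. In L-EPSCs against ESCs 5 of 7 fell and none rose. Of all 21533 genes, 2316 were called higher and 2150 lower in D-EPSCs, and 1895 and 2485 in L-EPSCs. The growth protocol allows feeders or gelatin, and the labels do not say which held for the ESC libraries. For the EPSCs, the study's methods describe a period without feeders before the RNA was taken. Markers of other cell types differed in J1 too. Trophoblast markers summed to 885 ± 19.8 normalized counts in ESCs, 682 ± 12.3 in L-EPSCs and 135 ± 8.71 in D-EPSCs. Primitive endoderm markers summed to 2818 ± 28.2, 3991 ± 68.5 and 4808 ± 70.2 in the same order. Of 10 trophoblast markers, 4 fell in D-EPSCs, and 3 rose and 2 fell in L-EPSCs, against ESCs. Of 8 primitive endoderm markers, 3 rose and 1 fell in D-EPSCs, and 3 rose in L-EPSCs. Of 7 lineage factors, which overlap these lists, 1 rose and 3 fell in D-EPSCs, and 5 rose in L-EPSCs. Leaving out 1 library ended the calls of Cdx2 and T in D-EPSCs, and of Gata4, Sox17, Pax6, Hand1 and Krt18 in L-EPSCs. The part of these cells or genes in the J1 results was not tested. In bulk RNA, fewer cells of a type and less RNA per cell cannot be told apart.

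**Figure D2:**
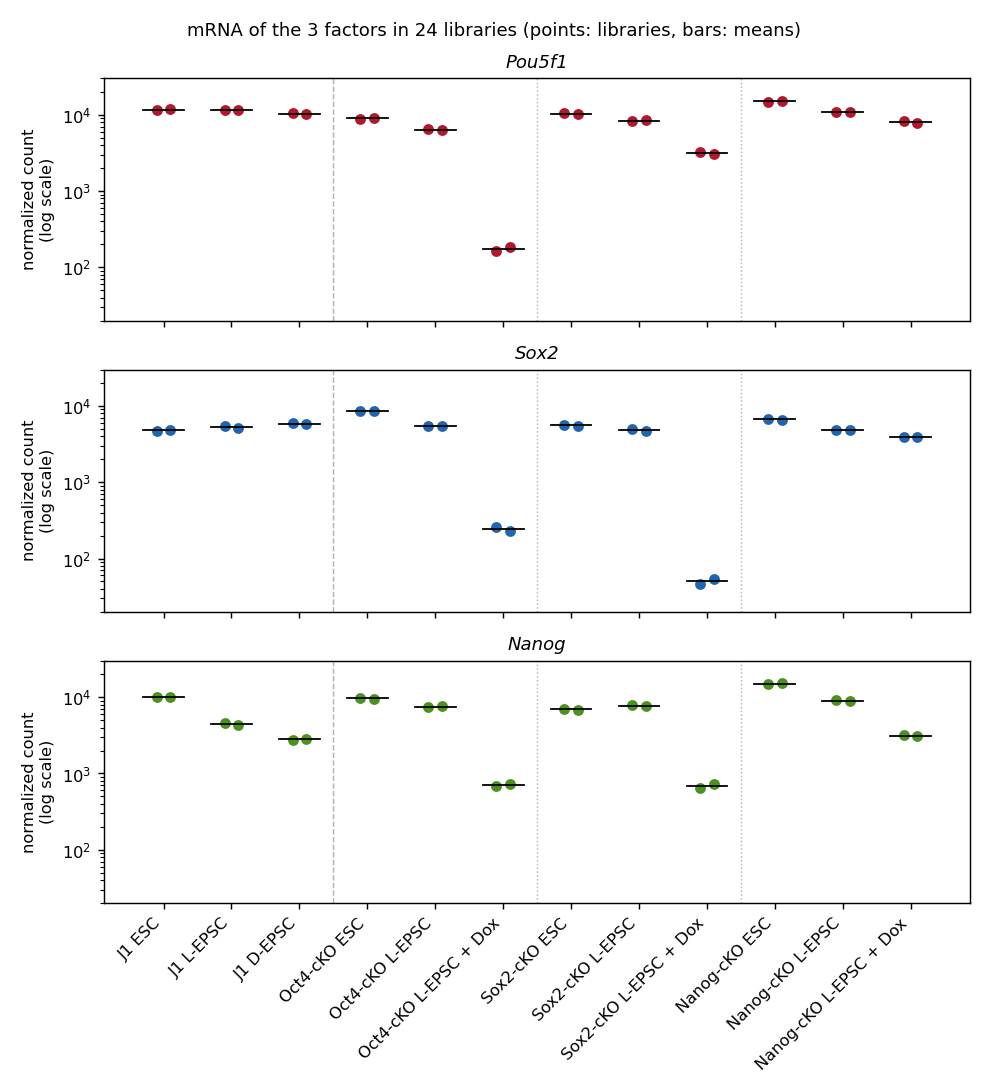
Normalized counts of Pou5f1, Sox2 and Nanog (log scale) in each of the 24 libraries (points) by group, with group means (bars). The dashed line separates the J1 table from the tet-off table, which were normalized separately. Nanog is lower in the J1 EPSCs than in J1 ESCs, and all 3 genes are lowest in Dox-treated Oct4- or Sox2-cKO tet-off L-EPSCs.

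The tet-off ESCs were compared to see how the lines differ before conversion. Pou5f1 stood at 8943 and 9063 normalized counts in Oct4-cKO ESCs, where the transgene is its source, at 10510 and 10293 in Sox2-cKO ESCs and at 14947 and 15077 in Nanog-cKO ESCs. Sox2 stood at 8719 and 8709 in Oct4-cKO, 5688 and 5497 in Sox2-cKO and 6729 and 6619 in Nanog-cKO ESCs. Nanog stood at 9691 and 9566 in Oct4-cKO, 7007 and 6882 in Sox2-cKO and 14993 and 15127 in Nanog-cKO ESCs. For Sox2 and Pou5f1 the line that carries the factor as a transgene had the lowest level, whereas for Nanog it had the highest. Oct4-cKO ESCs had 0.64 more Sox2 than Sox2-cKO ESCs on the log2 scale (SE 0.055, adjusted p = 1.80e-07). Against Nanog-cKO ESCs they had less Pou5f1 (log2 fold change −0.74, SE 0.049, adjusted p = 7.02e-09) and less Nanog (−0.65, SE 0.043, adjusted p = 6.73e-09). Nanog was also lower in Sox2-cKO than in Nanog-cKO ESCs, by a log2 fold change of −1.12 (SE 0.043, adjusted p = 4.86e-12). The other 5 differences between lines were within 0.6, from −0.53 for Pou5f1 in Sox2-cKO against Nanog-cKO ESCs to 0.47 for Nanog in Oct4-cKO against Sox2-cKO ESCs. Of all 24007 genes tested, 12.3% were called between Oct4- and Sox2-cKO ESCs, 14.9% between Oct4- and Nanog-cKO ESCs and 18.9% between Sox2- and Nanog-cKO ESCs.

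Untreated tet-off L-EPSCs were then compared with the ESCs of their line, which asks how conversion relates to each factor. Of the 9 differences, 2 passed the test: Sox2 fell in the Oct4-cKO line and Nanog fell in the Nanog-cKO line. Sox2 went from the 8719 and 8709 normalized counts of Oct4-cKO ESCs to 5483 and 5480 in L-EPSCs, a log2 fold change of −0.67 (SE 0.055, adjusted p = 3.14e-08). Nanog went from 14993 and 15127 in Nanog-cKO ESCs to 9119 and 8847 in L-EPSCs, a log2 fold change of −0.75 (SE 0.043, adjusted p = 3.66e-10). In both cases the L-EPSC libraries lay well below those of the ESCs. By the study's description, the transgene is the source of Nanog mRNA in the Nanog-cKO line, so its fall there is not a change at the Nanog locus. Over the whole table, 28.4% of the genes tested were called in the Oct4-cKO line (15.4% lower), 19.6% in the Sox2-cKO line (11.6% lower) and 26.9% in the Nanog-cKO line (14.7% lower).

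Markers of other cell types moved with conversion too. Of 10 trophoblast markers, 6 rose in the Oct4-cKO line, 5 fell in the Sox2-cKO line, and 3 rose and 2 fell in the Nanog-cKO line. Of 8 primitive endoderm markers, 6 rose and 1 fell in the Oct4-cKO line, 3 rose and 4 fell in the Sox2-cKO line, and 4 rose and 1 fell in the Nanog-cKO line, beside 3118, 1918 and 2928 of all 24007 genes called higher. Leaving out 1 library ended the call of 1, 1 and 4 of these trophoblast and 3, 2 and 2 of these primitive endoderm markers in the Oct4-, Sox2- and Nanog-cKO lines. Gata6, an endoderm factor, went from 26.1 and 31.9 to 534.2 and 481.5 normalized counts with conversion of the Oct4-cKO line. The summed level of the 6 pluripotent stem cell markers was lower in L-EPSCs than in ESCs of each line, with 46153 ± 671 against 25518 ± 725 in the Oct4-cKO, 36119 ± 106 against 27947 ± 12.2 in the Sox2-cKO and 38382 ± 318 against 24409 ± 515 normalized counts in the Nanog-cKO line. The part of these cells or genes in the results on conversion was not tested.

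Pou5f1 was lower in L-EPSCs than in ESCs of all 3 lines without passing the threshold. It stood at 6420 and 6316 normalized counts in Oct4-cKO, 8221 and 8490 in Sox2-cKO and 10949 and 10877 in Nanog-cKO L-EPSCs, with log2 fold changes of −0.50 (adjusted p = 2.55e-07), −0.32 (adjusted p = 6.90e-05) and −0.46 (adjusted p = 7.60e-07). The L-EPSC libraries did not overlap with the ESC libraries of their line. Sox2 stood at 4966 and 4701 in Sox2-cKO and 4850 and 4848 in Nanog-cKO L-EPSCs, with log2 fold changes of −0.21 (adjusted p = 0.00605) and −0.46 (adjusted p = 2.93e-06). Nanog had values on either side of 0, with 7424 and 7636 in Oct4-cKO L-EPSCs (−0.35, adjusted p = 2.86e-06) and 7883 and 7557 in Sox2-cKO L-EPSCs (0.15, adjusted p = 0.00948). Sox2-cKO was thus the line in which L-EPSCs had more Nanog than ESCs, in both libraries. The conversion effect on Nanog differed between the Sox2-cKO and the Nanog-cKO line by 0.90 (SE 0.060, adjusted p = 2.01e-08). This sets Nanog from its own locus in the Sox2-cKO line against Nanog from the transgene in the Nanog-cKO line. No other difference of conversion between lines passed 0.6 for the 3 genes, and those differences ranged from −0.51 (Nanog, Oct4-cKO minus Sox2-cKO) to 0.39 (Nanog, Oct4-cKO minus Nanog-cKO). Such differences were called for 10% of genes between Oct4- and Sox2-cKO, 14.7% between Oct4- and Nanog-cKO and 14.8% between Sox2- and Nanog-cKO.

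**Figure D3:**
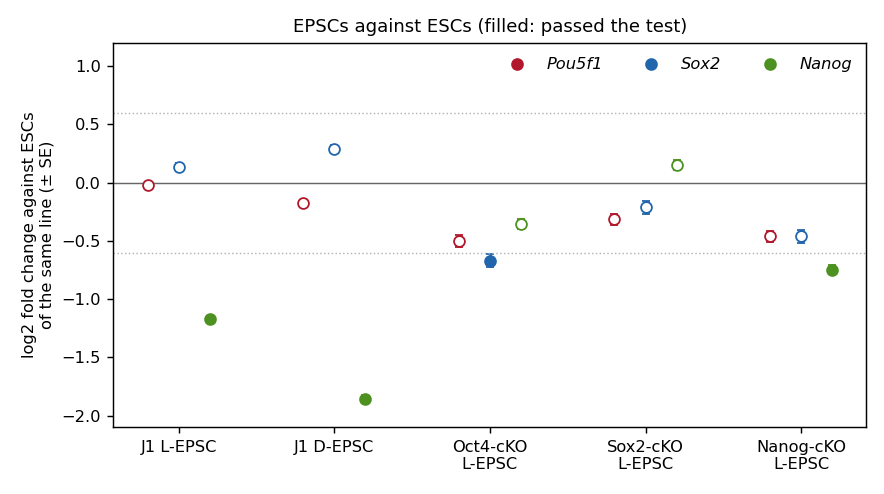
Log2 fold change (± SE) of each gene in J1 L-EPSCs, J1 D-EPSCs and the untreated L-EPSCs of the 3 tet-off lines against the ESCs of the same line (n = 2 and 2), with filled points for adjusted p under 0.05 and a change beyond 0.6 (dotted lines). Nanog passed in both J1 comparisons and in the Nanog-cKO line, Sox2 passed in the Oct4-cKO line, and the other points are open.

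Dox-treated tet-off L-EPSCs were compared with untreated ones. The question was how switching off the transgene of each factor relates to its own mRNA and to those of the others. With Dox in the Oct4-cKO line, all 3 mRNAs fell. Pou5f1 itself went from 6420 and 6316 to 162 and 184 normalized counts, which is 2.72% ± 0.245 (SD, n = 2) of the untreated mean and a log2 fold change of −5.19 (SE 0.049, adjusted p = 7.32e-20). Sox2 went from 5483 and 5480 to 260.3 and 229.8 normalized counts, or 4.47% ± 0.393 of the untreated mean (−4.48, SE 0.055, adjusted p = 2.03e-18). Nanog went from 7424 and 7636 to 691 and 726, or 9.41% ± 0.379 (−3.41, SE 0.043, adjusted p = 2.15e-18). Every Dox library lay far below every untreated library for each gene. Calls in this comparison covered 19.3% of the genes tested, with 10.8% lower and 8.53% higher. The tables hold no exon-level counts, so it cannot be told apart whether the remaining Pou5f1 reads came from the transgene or from the rest of the endogenous locus.

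With Dox in the Sox2-cKO line, all 3 mRNAs fell as well, with Pou5f1 the least. Sox2 itself went from 4966 and 4701 to 47.0 and 53.1 normalized counts, 1.04% ± 0.0982 of the untreated mean, with a log2 fold change of −6.57 (SE 0.055, adjusted p = 2.43e-20). Nanog went from 7883 and 7557 to 654 and 733, or 8.99% ± 0.774 (−3.48, SE 0.043, adjusted p = 4.89e-18). Pou5f1 went from 8221 and 8490 to 3291 and 3073, which left 38.1% ± 2.04 of it (−1.39, SE 0.049, adjusted p = 1.33e-12). None of the 3 genes had a Dox library that overlapped with an untreated one. Calls covered 15.1% of the genes tested, with 7.32% lower and 7.79% higher.

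With Dox in the Nanog-cKO line, Nanog fell and the other mRNAs did not pass the threshold of 1. Nanog went from 9119 and 8847 to 3166 and 3112 normalized counts, so that 34.9% ± 0.860 of the untreated mean remained (−1.52, SE 0.043, adjusted p = 5.79e-13). Pou5f1 went from 10949 and 10877 to 8380 and 7726, or 73.8% ± 4.25 (−0.44, adjusted p = 4.42e-06), and Sox2 from 4850 and 4848 to 3940 and 3895, or 80.8% ± 0.647 (−0.31, adjusted p = 0.000506). The Dox libraries lay below the untreated libraries for all 3 genes, so the differences in Pou5f1 and Sox2 exceeded the spread between replicates. Calls covered 5.39% of the genes tested, with 2.59% lower and 2.8% higher. That is 1293 genes, and 479 were called with these groups fitted alone. Of the 3 targeted genes, Nanog had the largest share of its mRNA left in its own line, and which part of its locus or transgene gave these reads cannot be told apart.

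**Figure D4:**
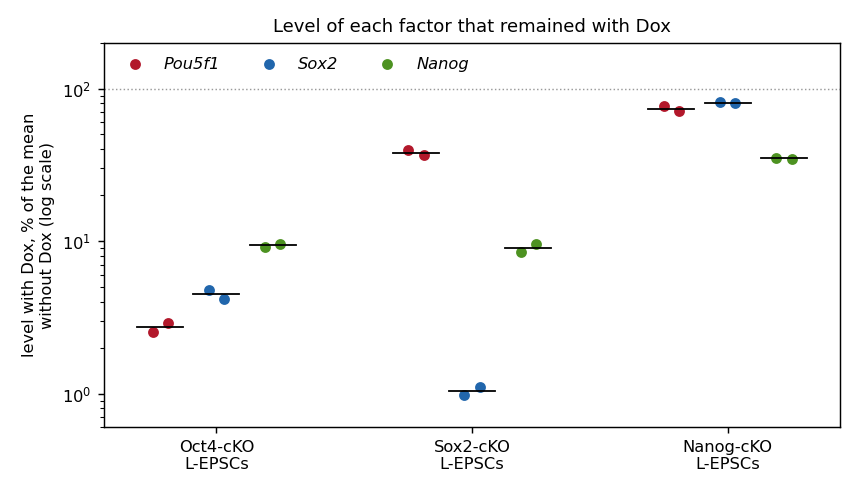
Level of each mRNA with Dox as a percentage of the mean of the untreated tet-off L-EPSCs of the same line (log scale), with points for the 2 Dox libraries and bars for their mean. In the Oct4-cKO line all 3 genes lie below 10%, in the Sox2-cKO line Pou5f1 stays at 38.1%, and in the Nanog-cKO line Pou5f1 and Sox2 stay at 73.8% and 80.8%.

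The share of reads on mitochondrial genes also moved with Dox. It was 1.57% and 1.45% without and 2.19% and 2.18% with Dox in the Oct4-cKO line, 2.10% and 1.92% against 2.48% and 2.36% in the Sox2-cKO line, and 1.85% and 1.91% against 2.55% and 2.73% in the Nanog-cKO line. The Dox libraries were higher in all 3 lines, also in the Nanog-cKO line, where Pou5f1 and Sox2 did not pass the threshold, and the part of this shift in the results was not tested.

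The effects of Dox were compared between lines by interaction terms. The effect on Nanog mRNA was −3.41 on the log2 scale in the Oct4-cKO line and −3.48 in the Sox2-cKO line, and the difference of 0.07 (SE 0.060, adjusted p = 0.501) was not called. The Nanog libraries of these Dox groups overlapped, at 691 and 726 against 654 and 733 normalized counts. The Oct4-cKO line thus had a loss of Nanog that could not be told from that of the Sox2-cKO line within this error, and both differed from the Nanog-cKO line, by −1.89 (SE 0.060, adjusted p = 5.45e-13) and −1.96 (SE 0.060, adjusted p = 1.09e-12). After Dox, the mean level of Nanog was 708 normalized counts in the Oct4-cKO and 694 in the Sox2-cKO line, against 3139 in the Nanog-cKO line, whose Dox-controlled transgene is Nanog itself.

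The changes of Sox2 and Pou5f1 mRNA, each in the line of the other factor, were unequal. Sox2 mRNA fell 22.4-fold with Dox in the Oct4-cKO line, whereas Pou5f1 mRNA fell 2.63-fold with Dox in the Sox2-cKO line. Summed trophoblast markers also rose with Dox, from 4642 to 31773 normalized counts in the Oct4-cKO line and from 2033 to 13236 in the Sox2-cKO line. The part of these shifts in cell state in the 2 falls was not tested. For Pou5f1 the effect in the Oct4-cKO line exceeded that in the Sox2-cKO line, with a difference of −3.80 (SE 0.069, adjusted p = 3.96e-15), and that in the Nanog-cKO line, with a difference of −4.75 (SE 0.069, adjusted p = 5.23e-17). The Sox2-cKO and Nanog-cKO lines differed in their effect on Pou5f1 by −0.95 (SE 0.069, adjusted p = 2.03e-08), just inside the threshold of 1. For Sox2, the effect in the Oct4-cKO line was weaker than that in its own line by 2.09 (SE 0.078, adjusted p = 1.47e-11) and stronger than that in the Nanog-cKO line (−4.17, SE 0.078, adjusted p = 1.46e-15), and the Sox2-cKO line differed from the Nanog-cKO line by −6.26 (SE 0.078, adjusted p = 2.21e-17). Each line has its own untreated libraries, so these comparisons of 2 lines do not share controls within themselves. Over all genes, 6.81% were called between Oct4- and Sox2-cKO, 14.8% between Oct4- and Nanog-cKO and 11.3% between Sox2- and Nanog-cKO.

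Against the ESCs of the same line, Dox-treated L-EPSCs had lower levels of all 3 genes in each line. The log2 fold changes of Pou5f1, Sox2 and Nanog were −5.69, −5.15 and −3.76 in the Oct4-cKO line and −1.71, −6.78 and −3.32 in the Sox2-cKO line, and all 6 passed the test. In the Nanog-cKO line Nanog passed with −2.26 (SE 0.043, adjusted p = 6.23e-16), while Pou5f1 at −0.90 and Sox2 at −0.77 lay inside the threshold of 1. These comparisons use the Dox libraries of the ones above, and called 30% of genes in the Oct4-cKO, 21.9% in the Sox2-cKO and 17.1% in the Nanog-cKO line.

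Ordered over the 9 tet-off groups, Nanog was highest in Nanog-cKO ESCs (15060 ± 94.8 normalized counts) and lowest in the Dox-treated Sox2-cKO (694 ± 56.1) and Oct4-cKO (708 ± 24.7) L-EPSCs, which overlapped. Its levels in untreated Sox2-cKO (7720 ± 230) and Oct4-cKO (7530 ± 150) L-EPSCs overlapped too. Pou5f1 was highest in Nanog-cKO ESCs (15012 ± 91.6) and lowest in Dox-treated Oct4-cKO L-EPSCs (173 ± 15.5), with untreated Sox2-cKO (8355 ± 190) and Dox-treated Nanog-cKO L-EPSCs (8053 ± 462) as neighbours that overlapped. Sox2 was highest in Oct4-cKO ESCs (8714 ± 7.56) and lowest in Dox-treated Sox2-cKO L-EPSCs (50.1 ± 4.33), and its levels in untreated Nanog-cKO (4849 ± 1.11) and Sox2-cKO (4833 ± 188) L-EPSCs overlapped. All other neighbours in these orders had libraries that did not overlap. Relative to Pou5f1 in the same library, Nanog was at 118% ± 3.73 without and 410% ± 22.3 with Dox in the Oct4-cKO line, at 92.5% ± 4.86 and 21.9% ± 2.82 in the Sox2-cKO line and at 82.3% ± 1.38 and 39.0% ± 1.76 in the Nanog-cKO line. The ratio rose with Dox in the Oct4-cKO line and was lower with Dox in the other lines, in every library. Dox switches off the transgene for Pou5f1 in the Oct4-cKO line and that for Nanog in the Nanog-cKO line. The direction of the ratio in those lines is therefore in large part set by the design.

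Genes that act on the 3 members were counted from a list of 14 regulators. With Dox, 9 of 14 fell in the Oct4-cKO line, 8 of 14 in the Sox2-cKO line and 1 of 14, Nr0b1, in the Nanog-cKO line, and none rose, where 10.8%, 7.32% and 2.59% of all genes were called lower. The median log2 fold changes of the list were −1.71, −1.27 and −0.12, and those of all genes tested were 0 in each line. Esrrb, an orphan nuclear receptor that holds the naive state, went from 3660 and 3642 to 47.2 and 40.0 normalized counts in the Oct4-cKO line (−6.36, SE 0.050, adjusted p = 6.26e-21). It fell less in the Sox2-cKO line, from 5570 and 5493 to 609.6 and 614.1 (−3.17), and went from 8181 and 8093 to 4376 and 4307 in the Nanog-cKO line (−0.91, inside the threshold). The Dox effect on Esrrb differed by −3.19 (SE 0.071, adjusted p = 3.57e-14) between the Oct4- and Sox2-cKO lines.

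Prdm14, a repressor of differentiation and FGF signalling genes, fell in the Oct4- and Sox2-cKO lines, as Nanog did. It went from 485.4 and 585.7 to 34.5 and 42.2 normalized counts in the Oct4-cKO line (−3.77) and from 540.1 and 518.8 to 33.0 and 35.2 in the Sox2-cKO line (−3.92), a difference of 0.15 (SE 0.16, adjusted p = 0.596). In the Nanog-cKO line it stood at 411.1 and 385.4 without and 365.4 and 402.4 with Dox, and the groups overlapped (−0.05, adjusted p = 0.866). Nr0b1 (Dax1), a nuclear receptor that binds Oct4, had 1 and 0 reads with Dox in the Oct4-cKO line and 0 and 0 in the Sox2-cKO line, which makes it at least 33.8-fold and at least 116-fold lower against a floor of 3 reads per library. In the Nanog-cKO line it went from 153.4 and 171.3 to 109.8 and 56.2 normalized counts, with Dox libraries that were far apart but both below the untreated ones (−1.03, adjusted p = 0.0146). This call was lost without Dox replicate 2 (−0.56, adjusted p = 0.279) and without either untreated library (−1.11 and −0.96, adjusted p = 0.0662 and 0.114), so that 0 of 14 regulators kept a call in the Nanog-cKO line in every such fit.

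Klf2 and Klf5 separated the Oct4-cKO from the Sox2-cKO line. Klf2, a Kruppel-like factor of the naive state, went from 2445 and 2375 to 691.0 and 690.4 normalized counts in the Oct4-cKO line (−1.80) and from 2419 and 2354 to 1910 and 2007 in the Sox2-cKO line (−0.29), and the effects differed by −1.52 (SE 0.064, adjusted p = 6.08e-11). Klf5 went the other way, with −0.23 in the Oct4-cKO line and −1.47 in the Sox2-cKO line, from 1744 and 1516 to 590.6 and 585.4 normalized counts, and the effects differed by 1.24 (SE 0.079, adjusted p = 7.20e-09). Tbx3, a T-box factor of the naive state, fell by 3.20 on the log2 scale in the Oct4-cKO line and by 1.07 in the Sox2-cKO line, and was at 0.84 in the Nanog-cKO line, inside the threshold. Klf4 (−1.61 and −1.84) and Tfcp2l1 fell in the Oct4- and Sox2-cKO lines, the latter from 7201 and 6903 to 1988 and 2010 normalized counts and from 7255 and 7336 to 2660 and 2518. Zfp281 was at −1.06 in the Oct4-cKO and −0.68 in the Sox2-cKO line, on either side of the threshold, and the effects differed by −0.38 (SE 0.092, adjusted p = 0.00504), which is not past it. The call in the Oct4-cKO line was lost without Dox replicate 2 (−0.98) or without untreated replicate 2 (−0.99). Foxd3, a forkhead factor, had 3 and 3 reads with Dox in the Sox2-cKO line (at least 42.7-fold lower) and 0 and 6.7 normalized counts in the Oct4-cKO line. Sall4, Stat3, Nr5a2 and Tcf7l1 were not called in any line with Dox, with log2 fold changes between −0.55 and 0.50.

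**Figure D5:**
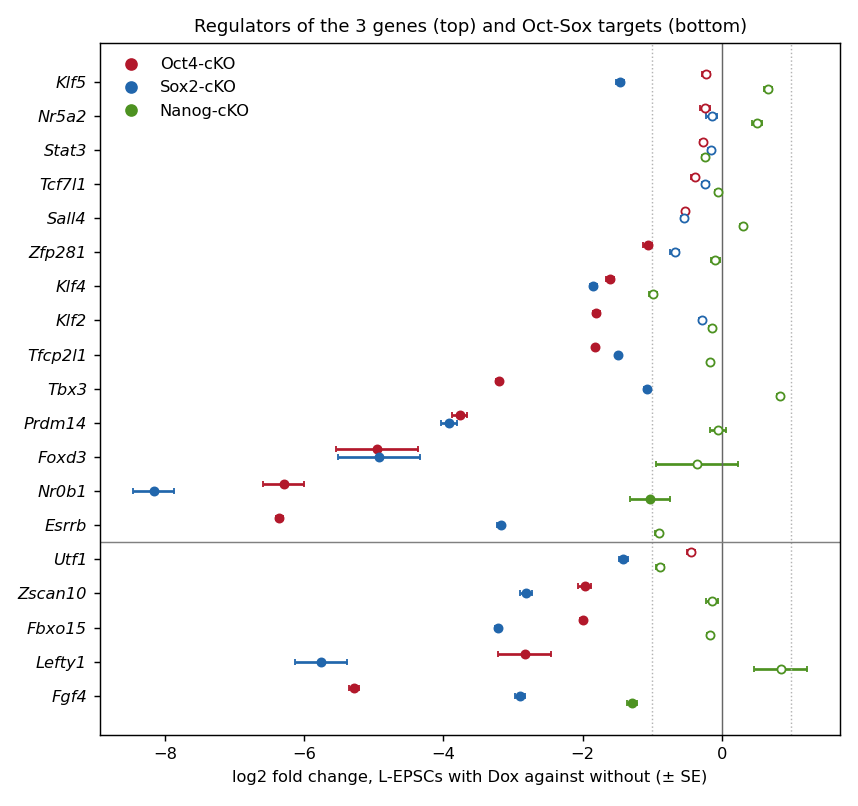
Log2 fold change (± SE) with Dox in tet-off L-EPSCs of the 3 lines for 14 regulators (top) and 5 targets of Oct-Sox elements (bottom), with filled points for calls past 1 (dotted lines). The values drawn for Nr0b1, Lefty1 and Foxd3 in the lines where Dox left them at 3 reads or fewer depend on the pseudocount of 1 and are not bounds. Genes that lie lower in the Oct4-cKO line than in the other lines include Esrrb, Klf2, Tbx3 and Fgf4, while Klf5 and Fbxo15 lie lower in the Sox2-cKO than in the Oct4-cKO line. The Nanog-cKO line has 2 filled points, Nr0b1 and Fgf4.

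The 14 regulators also moved with state. In J1, 9 of 14 were lower in D-EPSCs than in ESCs and 7 of 14 in L-EPSCs, with no gene higher and medians of −0.75 and −0.72 (all genes 0.013 and 0), where 9.98% and 11.5% of all genes were called lower. Tfcp2l1 went from 14748 and 14588 normalized counts in ESCs to 3484 and 3325 in L-EPSCs and 1353 and 1329 in D-EPSCs (−2.11 and −3.45 on the log2 scale), the same order of states as Nanog. Prdm14 stood at 816.9 and 875.2 in ESCs, 245.7 and 243.6 in L-EPSCs and 230.8 and 250.6 in D-EPSCs, so that it was low in both EPSCs without the step between them that Nanog had. In the tet-off lines, conversion lowered 8 of 14 regulators in the Oct4-cKO, 3 of 14 in the Sox2-cKO and 9 of 14 in the Nanog-cKO line, with medians of −0.83, −0.43 and −0.71, and 1 gene, Nr5a2, rose in the Sox2-cKO line (0.67), where 1918 of all 24007 genes were called higher. Of all genes, 15.4%, 11.6% and 14.7% were called lower in these comparisons. Between L-EPSCs and D-EPSCs of J1, 2 regulators were higher and 2 lower in L-EPSCs, beside 1033 higher and 1848 lower of all 21533 genes (13.4% called). Leaving out 1 library ended the calls of Foxd3 and Nr5a2 in J1 D-EPSCs against ESCs and of Klf5 between the J1 EPSCs. It also ended those of Sall4 and Tfcp2l1 with conversion of the Nanog-cKO line. Such fits added calls of Esrrb and Nr0b1 in J1 L-EPSCs against ESCs, and of Esrrb and Klf5 with conversion of the Sox2-cKO line.

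Targets of Oct-Sox elements were counted from a list of 5 genes. With Dox, 4 of 5 fell in the Oct4-cKO line, all 5 in the Sox2-cKO line and 1 of 5, Fgf4, in the Nanog-cKO line, with medians of −1.99, −2.90 and −0.18, beside the 10.8%, 7.32% and 2.59% of all genes called lower and their medians of 0. Fgf4, the growth factor gene with the best known such element, went from 2881 and 2880 to 81.8 and 65.5 normalized counts in the Oct4-cKO line (−5.28), from 3722 and 3566 to 507.3 and 466.9 in the Sox2-cKO line (−2.90) and from 5244 and 4991 to 2136 and 2034 in the Nanog-cKO line (−1.29). Fbxo15, an F-box gene, had the opposite order of the Oct4- and Sox2-cKO lines, with −1.99 and −3.21, and the effects differed by 1.22 (SE 0.060, adjusted p = 3.08e-10). Utf1, a chromatin factor of undifferentiated cells, went from 1134 and 1128 to 849.9 and 812.5 in the Oct4-cKO line (−0.44, inside the threshold) and from 899.9 and 841.0 to 353.1 and 300.1 in the Sox2-cKO line (−1.42). Lefty1, an inhibitor of Nodal signalling, had 1 and 3 reads with Dox in the Oct4-cKO line and 0 and 1 in the Sox2-cKO line, at least 6.33-fold and at least 29.4-fold lower. Zscan10 fell by 1.97 and 2.82 on the log2 scale in these lines.

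Markers of other cell types moved with Dox beside the 3 factors. Of 6 pluripotent stem cell markers, which include Fgf4 and Utf1, 4 fell in the Oct4-cKO line, all 6 in the Sox2-cKO line and 1 in the Nanog-cKO line, against 10.8%, 7.32% and 2.59% of all genes. Their summed level with Dox was 4642 ± 56.0 normalized counts in the Oct4-cKO line (25518 ± 725 without), 5773 ± 192 in the Sox2-cKO line (27947 ± 12.2 without) and 14583 ± 452 in the Nanog-cKO line (24409 ± 515 without), and no marker was at 0 in any library. Of 10 trophoblast markers, 7 rose in the Oct4-cKO line, 8 in the Sox2-cKO line and 2, Krt8 and Plac1, in the Nanog-cKO line, and none fell, with medians of 2.59, 2.43 and 0.45. Of all genes, 8.53%, 7.79% and 2.8% were called higher, with medians of 0. Their summed level went from 4642 ± 90.5 to 31773 ± 450 in the Oct4-cKO line, from 2033 ± 25.0 to 13236 ± 28.6 in the Sox2-cKO line and from 640 ± 59.6 to 1046 ± 17.9 in the Nanog-cKO line. Krt8, an epithelial keratin, was the most abundant of the list in every library of the Oct4- and Sox2-cKO lines, with 1798 and 1689 normalized counts without and 12336 and 12025 with Dox in the Oct4-cKO line. Plac1, a placental gene, rose in all 3 lines, and from 1 and 1 reads in the Nanog-cKO line, at least 17.6-fold. Cdx2, the trophoblast factor that Oct4 is known to oppose, stood at 24 and 30.5 without and 58.7 and 59.9 with Dox in the Oct4-cKO line (1.10, adjusted p = 0.127) and was called in the Sox2-cKO line, from 7.6 and 5.0 to 19.0 and 22.1 (1.58, adjusted p = 0.0313), a call that was lost without any 1 of the 4 libraries (1.33 to 1.84). The part of these genes in the levels of the 3 factors was not tested.

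Of 8 primitive endoderm markers, 1 (Pdgfra) rose and 4 fell in the Oct4-cKO line, 2 (Pdgfra and Foxa2) rose and 4 fell in the Sox2-cKO line, and 1 (Col4a1) fell in the Nanog-cKO line. Foxa2 had 0 and 0 reads without and 4 and 4 with Dox, so its rise is at the floor (at least 1.05-fold), and its call was lost without any 1 of the 4 libraries. For these and the following lists, all genes were called higher in 8.53%, 7.79% and 2.8% and lower in 10.8%, 7.32% and 2.59% of cases in the Oct4-, Sox2- and Nanog-cKO lines. Gata4 and Sox17, endoderm factors that oppose Nanog, fell in the Oct4- and Sox2-cKO lines, where Gata4 went from 56.8 and 67.4 to 4.6 and 11.1 normalized counts and from 44.3 and 37.9 to 14.0 and 9.0. The calls of Sox17 (−2.52 and −2.46) were lost without Oct4-cKO Dox replicate 1 (−1.72) or untreated replicate 2 (−2.02), and without Sox2-cKO Dox replicate 2 (−1.17) or either untreated library (−2.30 and −2.62). Of all 7 lineage factors (Cdx2, Eomes, Gata4, Gata6, Sox17, T and Pax6), none was called in the Nanog-cKO line, 2 fell in the Oct4-cKO line, and 1 rose and 3 fell in the Sox2-cKO line, the third being Pax6. Fibroblast markers summed to group means between 53.8 and 432 normalized counts in the tet-off table, with Lum at 1 read in total and not tested and Dcn not analysed here. With Dox, 2 of the 5 tested rose and 1 fell in the Oct4-cKO line, and 1 fell in each of the other lines.

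Genes on either side of the 3 loci were examined for changes beside those of the members. Those of Nanog and Pou5f1 lie within 105.3 kb, whereas 3 of the 4 at Sox2 (Dnajc19, Fxr1 and Atp11b) lie 568.7, 580.7 and 1101.7 kb away. Of these 12 genes, 6 fell with Dox in the Oct4-cKO line, 1 rose and 3 fell in the Sox2-cKO line, and 2 rose in the Nanog-cKO line. Of all genes, 19.3%, 15.1% and 5.39% were called, and the 1 of 12 that rose in the Sox2-cKO line, Foxj2, lies near the 7.79% of all genes called higher there. Around Nanog lie Dppa3, a maternal factor gene 77.2 kb upstream, Gdf3, a TGF-beta family ligand 97.4 kb upstream, and Apobec1, an RNA editing enzyme 105.0 kb upstream. Dppa3 went from 850.1 and 822.8 to 161.2 and 175.4 normalized counts in the Oct4-cKO line (−2.31) and from 475.3 and 499.8 to 152.6 and 143.9 in the Sox2-cKO line (−1.71). In the Nanog-cKO line, where Nanog itself fell, Dppa3 rose from 778.6 and 764.7 to 2939 and 3090 (1.96, SE 0.13, adjusted p = 1.48e-08), and the effects differed by −4.27 (SE 0.19, adjusted p = 2.95e-11) between the Oct4- and Nanog-cKO lines and by −3.68 (SE 0.19, adjusted p = 3.20e-10) between the Sox2- and Nanog-cKO lines. Apobec1 also fell in the Oct4-cKO line (−3.18) and rose in the Nanog-cKO line, from 139.5 and 134.6 to 396.1 and 382.2 normalized counts (adjusted p = 1.08e-05), while Gdf3 fell in the Oct4- and Sox2-cKO lines (−4.51 and −2.50) and was at 0.65 in the Nanog-cKO line. Slc2a3, a glucose transporter gene 13.2 kb downstream of Nanog and the closest of the list on that side, was not called in any line (−0.33, −0.09 and −0.19). Tcf19, on the other strand with its nearer end 2.0 kb past the end of Pou5f1, was not called with Dox either (0.16, 0.00 and −0.69). Sox2ot had 0 reads in both Dox libraries of the Oct4-cKO line and at most 9.9 normalized counts without Dox, a depth at which the change cannot be sized, and its call was lost without untreated replicate 2 (−0.92).

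Other Sox and POU genes were counted as relatives of the members. Of 10 tested in the tet-off table (Sox1 was not analysed here), 1 rose and 3 fell with Dox in the Oct4-cKO line, 2 rose and 2 fell in the Sox2-cKO line and 1 fell in the Nanog-cKO line, beside 19.3%, 15.1% and 5.39% of all genes called. The 1 of 10 that rose in the Oct4-cKO line is near the 8.53% of all genes called higher. Sox4, a SoxC factor, rose from 268.0 and 290.1 to 731.3 and 689.3 normalized counts in the Oct4-cKO line (1.35) and from 251.7 and 269.4 to 835.7 and 874.1 in the Sox2-cKO line (1.71). Sox21, a SoxB factor and known Sox2 target, fell in both, from 252.9 and 267.7 to 93.3 and 92.1 (−1.48) and from 579.0 and 581.6 to 62.7 and 95.7 (−2.89). The effects on Sox21 differed by 1.41 (SE 0.22, adjusted p = 0.000141). Pou2f3, an octamer factor gene, fell in the Nanog-cKO line, from 206.6 and 220.2 to 27.2 and 21.4 (−3.09), which differed from its effect in the Oct4-cKO line by 2.13 (SE 0.31, adjusted p = 3.70e-05). No gene listed in the tables carries a symbol that marks it as a pseudogene or copy of Pou5f1, Sox2 or Nanog.

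The genes whose pattern was most like that of each member were taken over the 12 libraries of the 2 lines that keep the member's own locus, by Pearson's r across libraries, which share their lines and treatments. For Pou5f1 (Sox2- and Nanog-cKO lines) these included Esrrb (r = 0.997), Msantd3 (0.993), Mybbp1a, a nucleolar protein gene (0.993), and Gart, a purine synthesis gene (0.991), of 9949 genes. For Sox2 (Oct4- and Nanog-cKO lines) they were Fgd1 (0.997), Chd6, a chromatin remodeller (0.994), Klf2 (0.991), Vangl2, a planar polarity gene (0.990), and Acp6 (0.990), of 10013 genes. For Nanog (Oct4- and Sox2-cKO lines) they were Prdm14 (0.998), Mcm7, a replication helicase subunit (0.997), Upp1, uridine phosphorylase (0.996), Ildr1 (0.994) and Apobec3, a cytidine deaminase (0.993), of 10021 genes. The members themselves reached r = 0.972 between Sox2 and Pou5f1 over the libraries chosen for Sox2, r = 0.936 and r = 0.967 of Pou5f1 with Sox2 and Nanog over those chosen for Pou5f1, and r = 0.795 and r = 0.972 of Nanog with Pou5f1 and Sox2 over those chosen for Nanog. Sox2 and Nanog had r = 0.937 over the libraries chosen for Sox2. Over all 18 libraries r was 0.687 between Pou5f1 and Sox2, 0.805 between Pou5f1 and Nanog and 0.935 between Sox2 and Nanog, and Spearman's rho of Sox2 with Pou5f1 over the 12 libraries was 0.587. Between 4.14% and 5.02% of genes had r above 0.9 with a member. Fgd1, a guanine nucleotide exchange factor gene, had mean levels of 3129, 2199 and 396.7 normalized counts in Oct4-cKO ESCs, untreated and Dox-treated L-EPSCs, and 2406, 1987 and 1814 in the same states of the Nanog-cKO line, the order that Sox2 had.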

How the data were processed

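Poly(A) RNA-seq of 24 libraries was used. According to the labels and the study's methods, the authors trimmed reads with Trim Galore 0.6.4, aligned them with STAR 2.7.9a to mm9 (NCBIM37), counted them per gene with HTSeq 0.11.2 (strand setting not stated) and deposited a signal, the gene counts divided by the DESeq2 size factor of each sample (the submitters' notes give version 4.1.1). In all 24 columns each deposited value came to a whole number of reads within 0.05 read, so whole reads were recovered. The J1 and tet-off tables were normalized separately and tested apart.

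The main test was limma 3.58.1 (R 4.3.3) with a trend on log2(normalized count + 1), all groups of a table in 1 fit, over the 21533 and 24007 genes with at least 2 reads in total, with Benjamini-Hochberg adjustment. A call required an adjusted p below 0.05 and an absolute log2 fold change above 0.6 (states, lines, conversion) or 1 (Dox). Fold changes on this scale understate the change of low genes. An exact permutation test of 2 against 2 libraries cannot go below p = 0.333, so an absence of overlap between groups was used as a description. A group with no library above 3 reads was taken as at the floor. Alternatives were edgeR 4.0.16 and DESeq2 1.42.0 on whole reads, a pseudocount of 0.1, a filter at a mean of 10, TMM scaling, centring on the median, the groups compared alone, a replicate block, the other threshold and leaving out each replicate. The fit was checked on simulated data with known changes.

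The members and lists were chosen with earlier results of these data known. Named were the 3 members, the members of the lists of regulators, Oct-Sox targets, lineage factors, relatives, neighbours and cell type markers, and for each member the 5 most alike genes with a mean of at least 100, of which 1 is not reported here. The search for GCATNACAA was added after the values had been seen. Gene symbols missing from the tables were filled by gene ID (1723 and 2252 genes), and positions came from the NCBIM37 annotation, since the coordinates within the tables are of a later build.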

Additional observations from a re-analysis of the deposited data

Results flagged for a closer look

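The following results stood out because the same contrast gave different effects in 2 lines by an interaction term of the fit. On the log2 scale, the conversion effect on Nanog differed by 0.90 between the Sox2-cKO and Nanog-cKO lines (adjusted p = 2.01e-08). The Dox effect on Pou5f1 differed by −3.80 between the Oct4- and Sox2-cKO lines (adjusted p = 3.96e-15) and by −4.75 between the Oct4- and Nanog-cKO lines (adjusted p = 5.23e-17). The Dox effect on Sox2 differed by 2.09 between the Oct4- and Sox2-cKO lines (adjusted p = 1.47e-11), by −4.17 between the Oct4- and Nanog-cKO lines (adjusted p = 1.46e-15) and by −6.26 between the Sox2- and Nanog-cKO lines (adjusted p = 2.21e-17). The Dox effect on Nanog differed by −1.89 between the Oct4- and Nanog-cKO lines (adjusted p = 5.45e-13) and by −1.96 between the Sox2- and Nanog-cKO lines (adjusted p = 1.09e-12). Where the transgene of 1 of the 2 lines codes for the gene measured, a difference of Dox effects includes the switching off of that transgene. The conversion effect compares untreated cells, so no transgene was switched off in it. By the study's description, Nanog mRNA in the Nanog-cKO line has the transgene as its source in that comparison. In all of these results the line and the factor replaced cannot be told apart.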

How the results depend on the processing

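Each of 63 results on the 3 genes was recomputed under 891 alternatives in total, and 878 kept the direction and the side of the threshold. Only the difference of the Dox effect on Nanog between the Oct4- and Sox2-cKO lines, never called, changed sign, without Sox2-cKO Dox replicate 1 (−0.01, against 0.07). None changed its call under edgeR, DESeq2, TMM scaling, median centring, the filter on low values, the pseudocount of 0.1 or the fit of the groups alone, and the largest shifts were 0.0384, 0.0256, 0.0365 and 0.0628 on the log2 scale for the first 4. The replicate numbers did not pair the samples (correlations of deviations from −0.0625 to 0.0626 over 36 pairs and −0.00757 to 0.0264 over 3). The replicate block changed no call of the 63 results and moved each of the 21 counts of called genes by less than 1.5 times (J1 D-EPSC against ESC from 4466 to 4349), with unchanged fold changes, for example Nanog in J1 L-EPSCs against ESCs (−1.17) and Sox2 with conversion of the Oct4-cKO line (−0.67).

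A threshold of 1 in place of 0.6 ended the calls of Nanog between J1 L-EPSCs and D-EPSCs (0.68), Sox2 with conversion of the Oct4-cKO line (−0.67), Nanog with conversion of the Nanog-cKO line (−0.75), Sox2 between Oct4- and Sox2-cKO ESCs (0.64), Pou5f1 (−0.74) and Nanog (−0.65) between Oct4- and Nanog-cKO ESCs, and the difference in conversion of Nanog between the Sox2- and Nanog-cKO lines (0.90). A threshold of 0.6 in place of 1 added Pou5f1 (−0.90) and Sox2 (−0.77) in Dox-treated Nanog-cKO L-EPSCs against ESCs and the difference of the Dox effect on Pou5f1 between the Sox2- and Nanog-cKO lines (−0.95). The last ranged from −1.01 to −0.90 when replicates were left out, and was called without Sox2-cKO Dox replicate 1 and without Nanog-cKO Dox replicate 2 (−1.01). The difference that changed sign ranged from −0.01 to 0.15 over these fits.

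With TMM scaling, the percentages that remained with Dox moved by less than the spread between replicates. Leaving out a Dox library gives the value of the other library, which is no test of stability with 2 replicates. Of the 5 most alike genes, 1, 0 and 1 (Pou5f1, Sox2, Nanog) were kept over all 18 libraries and 0, 0 and 1 with Spearman's rho, so those names depend on the measure.

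Leaving out each replicate was extended to the genes of the lists after the data had been seen. With Dox, 1 or more of these fits ended the calls of Zfp281, Sox17, Cchcr1 and Sox2ot in the Oct4-cKO line, of Cdx2, Foxa2, Sox11 (−1.16 to −0.51 without Dox replicate 1 and −0.55 without untreated replicate 2) and Sox17 in the Sox2-cKO line, and of Nr0b1 in the Nanog-cKO line.

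Counts of called genes that moved by over 1.5 times were those with the groups alone in Nanog-cKO Dox against no Dox (1293 to 479) and against ESC (4117 to 2737) and in Oct4- against Nanog-cKO ESCs (3573 to 2155), and J1 L-EPSC against D-EPSC without D-EPSC replicate 2 (2881 to 1913). At a threshold of 1 they were J1 L-EPSC against ESC (4380 to 2899) and D-EPSC (2881 to 1836), conversion of the Oct4-, Sox2- and Nanog-cKO lines (6822 to 4466, 4713 to 2990, 6457 to 4196), ESCs between lines (2962 to 1861, 3573 to 2300, 4540 to 3009) and the differences of conversion (2403 to 1286, 3536 to 2059, 3551 to 2199). At 0.6 they were Dox in the Sox2- and Nanog-cKO lines (3628 to 5568, 1293 to 2386), Nanog-cKO Dox against ESC (4117 to 6206) and the differences of the Dox effect (1635 to 3097, 3545 to 5414, 2714 to 4383).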
